A study of Caenorhabditis elegans with 12 samples.

Results

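The nuclear hormone receptor genes of Caenorhabditis elegans are described here across 12 whole-worm RNA libraries. Members were chosen by name, as the rows of the mRNA table whose gene identifier maps to a symbol starting with nhr- or to daf-12, odr-7, unc-55, fax-1 or sex-1. This gave 272 of the 22191 genes in the table, 270 of them protein coding and 2 pseudogenes. The annotation lists 288 such genes, and the other 16, of which 12 are pseudogenes and 4, among them nhr-8, are protein coding, were not analysed here.

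Nuclear hormone receptors are transcription factors that bind DNA through zinc fingers and, in many cases, a small lipophilic ligand such as a steroid or a fatty acid through a separate pocket. Insects and mammals have small sets of them, whereas nematodes carry a greatly enlarged family, most of which descends from an ancestor related to the mammalian fatty acid receptor HNF4 and has no known ligand. In the worm, conserved members time moulting and development and specify neurons, and members of the enlarged branch control fat metabolism and the response to nutrients and foreign compounds.

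The libraries come from the laboratory strain N2, labelled wild type, and from CN30, labelled trans-nuclear, both fed E. coli OP50 on NGM plates. Per strain there are 3 libraries of total RNA from day 0 and a single one from each of days 6, 9 and 12, so an SD over the later libraries is over 3 ages. The labels do not name the donors of the nucleus and the cytoplasm of CN30, or say whether it is 1 line, whether animals were pooled or sexed, or whether the day-0 libraries came from separate cultures, so the p-values measure only the spread between these libraries. Sample titles write NC30 for CN30.

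Values are FPKM, the authors' fragments scaled to gene length and to library size, so levels of different genes can be compared per length. Differences are on the log2(FPKM + 1) scale, which understates the change of low genes. A gene was tested with at least 1 FPKM in at least 3 libraries of a comparison, and called at an adjusted p under 0.05 in limma, adjusted over all genes tested. A day-0 library summed to 874694 to 911271 FPKM over all mRNA genes and a later one to 726252 to 779302, and 11831 to 14395 genes reached 1 FPKM in a library. At day 0, N2 replicates 2 and 3 lay apart in opposite directions. On the log2 scale the median receptor deviation from the N2 mean was -0.27, 0.24 and 0.04 in replicates 2, 3 and 1. Of 137 receptors, 26, 20 and 3 were over 0.5 away in these replicates, against 3, 3 and 4 in the CN30 libraries. In bulk samples, fewer cells of a type and less RNA per cell cannot be told apart.

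Most receptor genes were weakly expressed. The mean over the 12 libraries was at least 10 FPKM for 23 of the 272 genes, between 1 and 10 for 119 and under 1 for 130, of which 63 lay under 0.1. The median of these means was 1.25 FPKM, against 3.44 for the 19024 annotated genes in the table, and 52.2% of receptors against 63.9% of annotated genes had a mean of at least 1. In every library 109 receptors reached 1 FPKM, and 95 reached it in none. Expression was concentrated in a few genes: nhr-49 (66.6 FPKM), nhr-97 (62.9 FPKM) and nhr-86 (53.2 FPKM) had the highest means and together held 17.5% of the summed mean, and the top 10 held 36.4%. After these 3 came nhr-66, nhr-274, nhr-114, nhr-23, nhr-46, nhr-88 and nhr-68.

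The genes are unevenly spread over the genome (WBcel235). Chromosome V carries 167 of the 272 genes, chromosome IV 32, X 26, I 24, II 15 and III 8. The median of the receptor means was 0.957 FPKM on V, 0.24 on I and 0.9 on II, against 2.93 on III, 4.07 on IV and 4.86 on X. With neighbours joined at gaps of up to 10 kb, 173 of the 288 annotated genes stand in 47 runs, and 131 of these are on V. The largest run holds 12 genes (V, 451451 to 497297), with means from 0.887 FPKM (nhr-123) to 6.63 FPKM (nhr-130). A run of 9 genes (V, 3844429 to 3886204) has no member with a mean of 1, and its highest is nhr-158 at 0.47 FPKM.

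Receptor genes with a known function spanned the whole range of levels. Those of neurons and cell fate were the weakest: odr-7, which fixes the identity of an olfactory neuron, reached at most 0.05 FPKM and was never tested. The motor neuron gene unc-55, a COUP-TF type receptor, had 0.42 FPKM at most, and fax-1, which acts in the wiring of interneurons, 0.65. For nhr-111 the highest value was 0.2 FPKM. Those at 17.5 FPKM or more in every library were the fat regulator nhr-49, nhr-66, the foreign compound and pathogen sensor nhr-86, and the moulting regulator nhr-23.

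**Figure D1:**
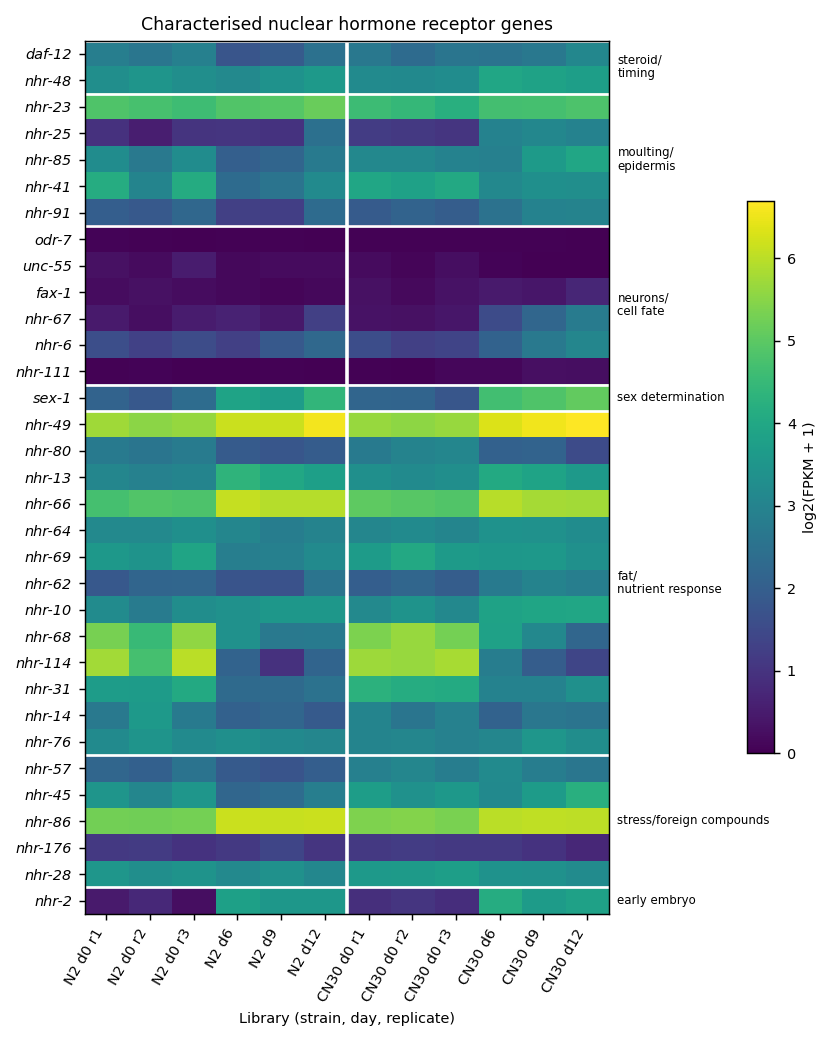
Heat map of log2(FPKM + 1) for the receptor genes with a known function (lines, grouped by role) in the 12 libraries (columns, N2 left of the white line and CN30 right of it). Day-0 and later libraries differ most for nhr-2, sex-1, nhr-114 and nhr-68, and odr-7 and nhr-111 are near 0 throughout.

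Summed over all 272 genes, receptor expression was 937, 773 and 1039 FPKM in the N2 day-0 libraries and 902, 895 and 1071 FPKM at days 6, 9 and 12, and 1006, 1045 and 1003 and then 1150.0, 1321 and 1376 FPKM in CN30. The later CN30 libraries were the 3 highest, and N2 replicate 2 of day 0 was the lowest. As a share of all mRNA FPKM, receptors held 0.105, 0.0872 and 0.116% at day 0 and 0.118, 0.115 and 0.144% at days 6, 9 and 12 in N2, and 0.111, 0.119 and 0.11% and then 0.15, 0.174 and 0.189% in CN30. The 3 later CN30 shares thus lay above all others. Receptors listed at exactly 0 numbered 47 to 54 in the day-0 libraries, 49, 45 and 36 in N2 of days 6, 9 and 12, and 21, 20 and 26 in CN30 of those days. An exact 0 can be a missing estimate in such tables: the SUMO-conjugating gene ubc-9, used by every cell, is listed at 0 in 11 of the 12 libraries.

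**Figure D2:**
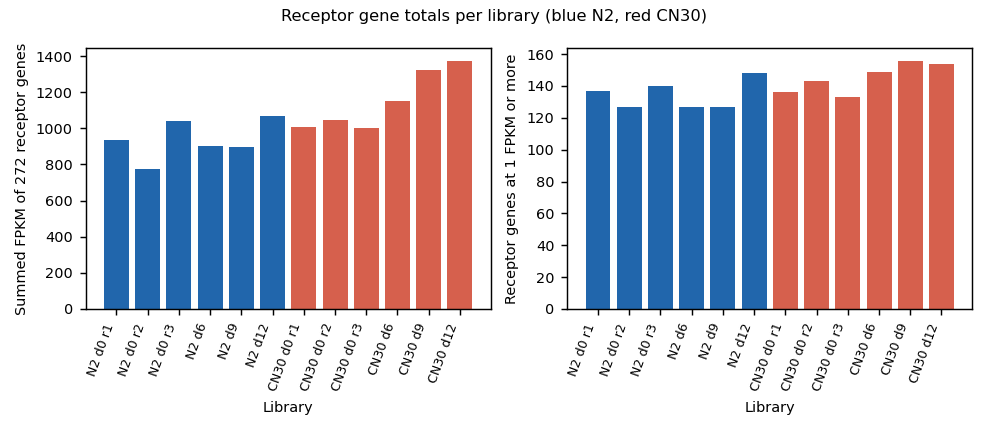
Summed FPKM of the 272 receptor genes (left, linear axis from 0) and number of receptor genes at 1 FPKM or more (right) in each library, N2 in blue and CN30 in red. The CN30 libraries of days 6, 9 and 12 have the highest sums, 1150.0, 1321 and 1376 FPKM, and the highest numbers of genes at 1 FPKM, 149 to 156.

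The comparison of days 6 to 12 with day 0 asked how receptor expression changed as each strain aged. In N2, of 137 receptors tested, 28 rose, 29 fell and 80 did not pass, so 41.6% were called against 72.7% of all genes tested; 40.7% of all genes rose and 32.0% fell. In CN30, of 149 tested, 65 rose, 23 fell and 61 did not pass, so 59.1% were called against 80.9% of all genes, of which 46.0% rose and 34.9% fell. The median log2 change of receptors was -0.05 in N2 and 0.32 in CN30, against 0.14 and 0.24 for all genes. The other 135 and 123 receptors did not pass the filter on low values. Some of the calls exist only through the age at which the gene is high, since it reached 1 FPKM in no library of the other age: in N2 these are 2 of the falls (nhr-15 and nhr-100) and 3 of the rises (nhr-2, nhr-161 and nhr-237), and in CN30 11 of the rises, nhr-67 and nhr-263 among them.

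The 2 age comparisons share no library. Of 136 receptors tested in both, 28 rose in both and 15 fell in both. Every receptor that rose in N2 rose in CN30 as well, and none was called in opposite directions. Exceptions were also rare over all genes tested in both. There 2.46% rose in N2 without passing in CN30, 0.0144% rose in N2 and fell in CN30, and 0.101% did the reverse. Of the remaining receptors, 27 rose in CN30 alone by this threshold, 14 fell in N2 alone, 8 fell in CN30 alone and 44 passed in neither. These are 19.9, 10.3, 5.88 and 32.4% of the receptors, against 8.29, 3.4, 5.8 and 13.1% of all genes tested in both. Over those 13866 genes, 38.5% rose in both and 28.4% fell in both, against 20.6% and 11% of the receptors.

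**Figure D3:**
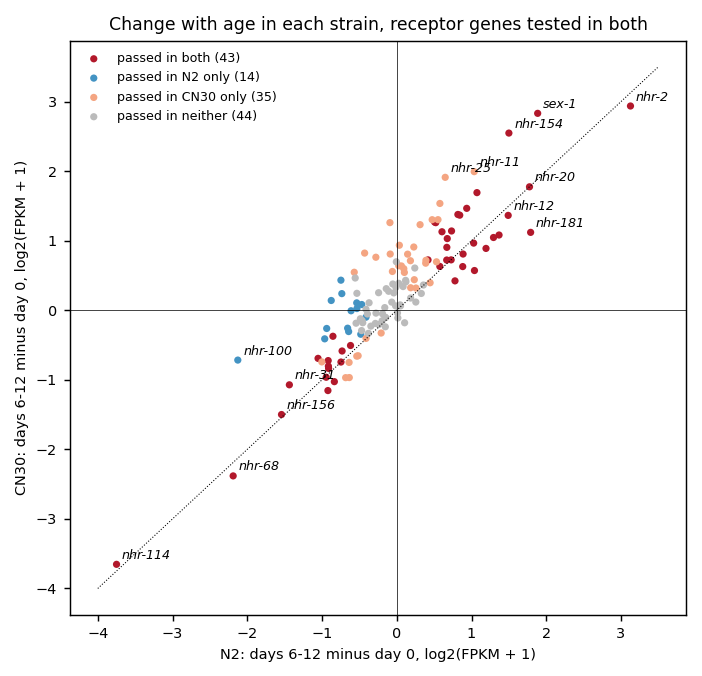
Change from day 0 to days 6 to 12 on the log2(FPKM + 1) scale in N2 (x axis) and CN30 (y axis) for the 136 receptor genes tested in both; the dotted line marks equal change. Colours give the calls, with 43 genes passing in both strains, and none of these lies in a corner where the strains move in opposite directions. Such opposite calls were rare over all genes too, at 0.0144 and 0.101%. The gene nhr-114 lies at the lower left end, at -3.75 and -3.65.

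How many were called up or down depended on how libraries were scaled. With quantile normalization 74 receptors rose and 7 fell in N2 (91.4% of calls up, against 49.1% above), and with median-ratio rescaling 23 rose and 45 fell (33.8% up). In CN30 the counts were 94 up and 12 down (88.7% up, against 73.9%) and 50 up and 36 down (58.1% up). The median change of all genes was 0.30 in each strain under quantile normalization, and with median-ratio rescaling it was -0.01 in N2 and -0.02 in CN30, and that of the N2 receptors was 0.58 and -0.20. For the receptors in CN30 it was 0.64 with quantile normalization and 0.11 with median-ratio rescaling. The direction of small changes therefore depends on the scaling. Without N2 day-0 replicate 2, 21 rose and 30 fell in N2. Without N2 day-0 replicate 1 or 3, 13 receptors fell in N2, and 18 without N2 day 6 or day 9.

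Tissue markers also moved with age. Of all genes tested, 40.7% rose and 32.0% fell in N2, and 46.0% rose and 34.9% fell in CN30. All 8 oocyte markers rose in both strains, from a summed 814 to 1201 FPKM at day 0 to 2632 to 3522 later in N2 and from 1074 to 1239 to 2144 to 2929 in CN30. All 5 sperm markers tested fell, from 292 to 322 FPKM to 1.98 to 10.03 in N2 and from 264 to 273 to 5.34 to 17.96 in CN30. The 5 body-wall muscle markers fell from 3332 to 3723 FPKM to 159.8 to 236 in N2 and from 2983 to 3298 to 162 to 457 in CN30, and the 3 pharyngeal markers from 179 to 212 to 21.3 to 22.2 and from 156 to 172 to 18.2 to 36.97. Of 6 intestinal markers 4 fell in N2, with sums of 4632 to 5340 and then 689 to 2520.0 FPKM, and 6 fell in CN30, with 5717 to 5841 and then 565 to 1571. Of 5 hypodermal markers 2 fell in N2, with sums of 2506 to 2837 and then 112 to 149 FPKM, and 5 fell in CN30, with 2421 to 2885 and then 20.5 to 383. Of 9 neuron markers tested 6 fell and 1 rose in N2, with sums of 162 to 171 and then 153.7 to 196 FPKM, and 3 fell and 1 rose in CN30, with 173 to 192 and then 188 to 276. The axonal transport gene unc-104, one of them, was listed at 0 at day 0 in both strains. The part of these tissues in the receptor changes was not tested.

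Among the 13 receptors of fat and nutrient response, 3 rose and 6 fell in N2, and 5 rose and 4 fell in CN30. Like all genes, this group moved in both directions. The shares of all genes were 40.7% up and 32.0% down in N2, and 46.0% up and 34.9% down in CN30. The largest falls of any receptor were in this group. The gene nhr-114 (V, 4187202 to 4190008), which acts in the vitamin B12 and methionine response of the intestine and germline, had 53.7, 25.5 and 62.8 FPKM in the N2 day-0 libraries and 3.37, 0.94 and 3.48 FPKM at days 6, 9 and 12. Its CN30 values were 51.6, 49.8 and 54.8 FPKM on day 0 and 6.19, 2.93 and 1.65 FPKM later. Day 0 was high and every later library low, with no overlap in either strain. The change was -3.75 ± 0.46 (SE, adjusted p = 0.000373) in N2 and -3.65 ± 0.34 (SE, adjusted p = 0.000108) in CN30. An assembled locus covers 82.3% of the exon bases of nhr-114 and fell with it, from 35.6, 18.6 and 44.4 to 1.53, 0.81 and 1.76 FPKM in N2.

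Next came nhr-68 (V, 11573440 to 11575709), which with nhr-10 switches on the propionate shunt, a route that breaks down propionate when vitamin B12 is scarce. In N2 it had 38.9, 21.7 and 46.5 FPKM on day 0 and 9.52, 5.55 and 5.6 later, and in CN30 40.1, 49.8 and 38.5 and then 13.3, 7.74 and 3.66 FPKM. Later libraries were all below the day-0 ones in both strains, and N2 replicate 2 was the lowest of the day-0 values. The log2 change was -2.19 ± 0.33 (SE, adjusted p = 0.000983) in N2 and -2.38 ± 0.39 (SE, adjusted p = 0.00134) in CN30. Its partner nhr-10 did not fall: it had 8.37, 5.91 and 8.73 FPKM on day 0 and 9.42, 10.7 and 10.5 later in N2, where it did not pass (0.39 ± 0.18 SE, adjusted p = 0.0962). In CN30 nhr-10 rose from 7.89, 9.83 and 7.74 to 13.5, 14.2 and 14.6 FPKM (0.68 ± 0.12 SE, adjusted p = 0.00201).

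The 5 propionate shunt genes under these receptors all fell in both strains, against 32.0% of all genes in N2 and 34.9% in CN30. All 5 did so under both other scalings as well. Their summed level was 2735 to 4267 FPKM at day 0 and 437 to 519 later in N2, and 3996 to 4026 and then 486 to 889 in CN30. The acyl-CoA dehydrogenase gene acdh-1 fell from 981 ± 424 to 58.6 ± 34.1 FPKM in N2 (SD, n = 3) and from 1320.0 ± 72.7 to 76.9 ± 89.4 in CN30, and its CN30 day-6 library still had 177 FPKM. The aldehyde dehydrogenase gene alh-8, the final step, fell least: it kept 228, 271 and 241 FPKM in N2, whereas CN30 had 417, 364 and 381, from day-0 levels of 928 to 1012 FPKM in both strains. The fall of alh-8 was -1.97 ± 0.09 (SE, adjusted p = 1.61e-05) in N2 and -1.33 ± 0.08 (SE, adjusted p = 2.29e-05) in CN30, and the difference between these falls passed the test, at 0.64 ± 0.11 (SE, adjusted p = 0.0228).

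Fat desaturation and oxidation are steered by nhr-49, an HNF4-related receptor, together with nhr-80, nhr-13 and nhr-66, its binding partners. Of these 4, nhr-80 fell and the others rose. The level of nhr-49 (I, 9869718 to 9874626) was 52.1, 44.7 and 48.2 FPKM at day 0 in N2 and 69.9, 69.8 and 94.9 later, and in CN30 49.7, 45.9 and 49.2 and 79.7, 93.1 and 102. All later values exceeded all day-0 values of the strain, and in CN30 the 3 later ages stood in the order of the days. The rise was 0.67 ± 0.14 (SE, adjusted p = 0.00491) in N2, where it did not pass under quantile normalization (0.27, adjusted p = 0.144), and 0.90 ± 0.10 (SE, adjusted p = 0.000255) in CN30.

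For nhr-66, which represses sphingolipid genes with nhr-49, the values were 25.2, 28.1 and 27.1 and then 68, 60.1 and 60.04 FPKM in N2, and 31.5, 29.7 and 28.1 and then 61.2, 54.1 and 52.9 in CN30. The groups did not overlap (1.19 ± 0.09 SE, adjusted p = 5.6e-05 in N2 and 0.89 ± 0.09 SE, adjusted p = 0.000131 in CN30), and day 6 was the highest library of both strains. The same shape was seen in nhr-13, at 7.33, 6.63 and 7.07 and then 19.4, 15.1 and 12.6 FPKM in N2, with 9.14, 8.21 and 8.92 and then 15.9, 13.8 and 11.2 in CN30. It rose by 1.04 ± 0.18 (SE, adjusted p = 0.00215) in N2 and 0.57 ± 0.14 (SE, adjusted p = 0.00937) in CN30, the latter not passing under median-ratio rescaling (adjusted p = 0.119).

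By contrast nhr-80, needed for the production of oleic acid, fell in both strains. It had 5.8, 5.1 and 5.93 FPKM and then 2.78, 2.48 and 2.85 in N2, and 5.73, 7.01 and 7.35 and then 3.22, 3.35 and 1.9 in CN30, with no overlap between ages. The change was -0.83 ± 0.15 (SE, adjusted p = 0.00249) in N2, which did not pass under quantile normalization (adjusted p = 0.309), and -1.03 ± 0.20 (SE, adjusted p = 0.00275) in CN30. In N2, 1 of 9 fat genes known to depend on nhr-49 or nhr-80 rose and 2 fell, against 40.7 and 32.0% of all genes. In CN30, 2 of the 9 rose and 4 fell, against 46.0 and 34.9% of all genes. The desaturase gene fat-7 was among the falls, from 64.7 ± 31.6 to 10.8 ± 5.24 FPKM in N2 and from 94.3 ± 4.86 to 17 ± 20.2 in CN30, and the flavin monooxygenase gene fmo-2 rose in both, from 0.343 ± 0.184 to 6.95 ± 2.72 and from 0.377 ± 0.0929 to 19.2 ± 12.8. The desaturase gene fat-5 had 27.4, 11.3 and 14.3 FPKM in later N2 libraries and 17.9, 10.7 and 23.3 at day 0 (adjusted p = 0.996), and rose in CN30, from 7.64 ± 0.43 to 27.4 ± 9.21 FPKM.

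**Figure D4:**
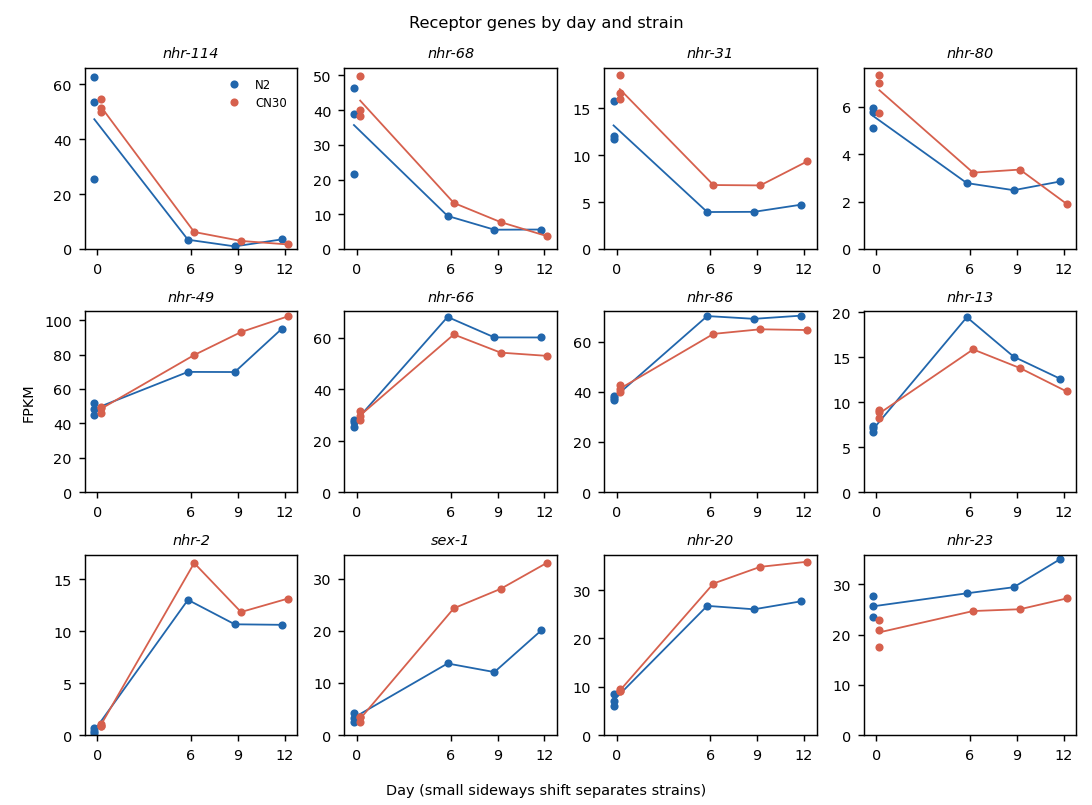
FPKM by day in N2 (blue) and CN30 (red) for 12 receptor genes; points are libraries, lines join the mean of the 3 day-0 libraries to the single libraries of days 6, 9 and 12, and each panel starts at 0. The top panels fall after day 0, nhr-114 from 25.5 to 62.8 FPKM down to 6.19 FPKM or less, and most of the others rise.

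Among the remaining members of this group, nhr-31, which shapes the tubular excretory cell, fell in both strains. Its values were 12, 11.7 and 15.8 and then 3.94, 3.96 and 4.72 FPKM in N2, and 18.5, 16.6 and 16 and then 6.82, 6.78 and 9.34 in CN30 (-1.44 ± 0.18 SE, adjusted p = 0.000386 and -1.07 ± 0.15 SE, adjusted p = 0.000579). Day-0 and later libraries did not overlap in either strain. In N2 the iron regulator nhr-14 fell from 7.51 ± 3.3 to 3.18 ± 0.461 FPKM and the HNF4-related nhr-69 from 11.5 ± 2.27 to 6.99 ± 1.06. Both calls were lost under quantile normalization (adjusted p = 0.417 and 0.0824), for nhr-14 also without N2 day 6 or day 12 and for nhr-69 without N2 day-0 replicate 1 or 3, day 6 or day 9. An assembled locus over 70.6% of the exon bases of nhr-14 did not fall with it, at 1.5, 0.69 and 2.26 and then 1.27, 1.35 and 2.55 FPKM in N2, and did not pass (0.15 ± 0.30 SE, adjusted p = 0.66). The diet-restriction lifespan gene nhr-62 had 2.57, 3.53 and 3.66 and then 2.32, 2.19 and 4.93 FPKM in N2 (-0.09 ± 0.28 SE, adjusted p = 0.794) and rose in CN30, from 3.02, 3.59 and 2.96 to 5.78, 6.99 and 6.24 (0.81 ± 0.13 SE, adjusted p = 0.00113). Neither nhr-64 nor nhr-76, which acts in the loss of stored fat, passed in either strain, with means of 7.96 and 8.23 FPKM.

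Of the 5 receptors of stress, hypoxia and foreign compounds, 1 rose and 1 fell in each strain. Shares of all genes that rose and fell were 40.7 and 32.0% in N2 and 46.0 and 34.9% in CN30. The gene nhr-86, a sensor of a bacterial phenazine, had 37.4, 36.6 and 38.3 FPKM and then 70.2, 69 and 70.3 in N2, and 41.2, 42.5 and 39.9 and then 63, 64.9 and 64.6 in CN30. Within each group the libraries lay close together, and later values were all above day 0 (0.88 ± 0.07 SE, adjusted p = 6.1e-05 in N2 and 0.63 ± 0.06 SE, adjusted p = 0.000142 in CN30). Detoxification under mitochondrial stress involves nhr-45, which fell in N2 from 10.2, 7.43 and 10.5 to 3.64, 4.13 and 6.31 FPKM (-0.88 ± 0.24 SE, adjusted p = 0.014), but not under quantile normalization (adjusted p = 0.0687) or without day-0 replicate 1 or 3. In CN30 it had 12.1, 9.43 and 10.8 and then 7.98, 11.8 and 17.8 FPKM (0.14 ± 0.27 SE, adjusted p = 0.645), so its day-12 value lay above and its day-6 value below day 0. Between 7.59 and 10.4 FPKM in N2, nhr-28 did not pass, and in CN30 it fell by 0.33 on the log2 scale (adjusted p = 0.0239), a call lost under quantile normalization (adjusted p = 0.0732), without any 1 day-0 library and without day 12. The hypoxia marker nhr-57 and the thiabendazole response gene nhr-176 did not pass (-0.39 ± 0.19 SE, adjusted p = 0.106 and 0.11 ± 0.15 SE, adjusted p = 0.543 in N2, -0.05 ± 0.17 SE, adjusted p = 0.786 and -0.18 ± 0.12 SE, adjusted p = 0.21 in CN30).

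Of the steroid receptors, daf-12 (X, 10644409 to 10666875) binds dafachronic acids, the bile acid-like hormones that choose between reproduction and the dauer stage. It had 6.29, 5.22 and 6.48 FPKM on day 0 and 2.42, 2.8 and 4.66 later in N2, and 5.36, 4.08 and 5.04 and then 4.86, 5.41 and 7.54 in CN30. In N2 every later library was below day 0, and in CN30 the ages overlapped. The N2 fall was -0.73 ± 0.23 (SE, adjusted p = 0.0271), which was lost under quantile normalization (-0.10, adjusted p = 0.646) and without day-0 replicate 1 or 3, day 6 or day 9, and CN30 did not pass (0.24 ± 0.18 SE, adjusted p = 0.261). Its relative nhr-48 did not pass in N2 and rose in CN30, from 8.26 ± 0.282 to 13.4 ± 1.09 FPKM (0.64 ± 0.10 SE, adjusted p = 0.0013).

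Enzymes and sterol carriers that supply the hormone gave 0 rises and 3 falls of 5 tested in N2, and 2 rises and 3 falls of 6 in CN30. The shares over all genes were 40.7% rises and 32.0% falls in N2, and 46.0% and 34.9% in CN30. The cytochrome P450 gene daf-9, which makes dafachronic acid, fell from 2.07, 2.04 and 1.93 to 0.28, 0.39 and 0.42 FPKM in N2 and from 2.29, 2.5 and 2.53 to 0.75, 0.87 and 0.68 in CN30 (-1.15 ± 0.12 SE, adjusted p = 0.000157 and -0.96 ± 0.10 SE, adjusted p = 0.000163). The first enzyme, daf-36, and the cholesterol transporter ncr-2 fell in both as well, and hsd-1 was at 0.02 FPKM or less. The dehydrogenase gene dhs-16 had 0.52, 0.14 and 0.66 and then 0.27, 0.43 and 2.58 FPKM in N2, too low to be tested, and rose in CN30 from 0.62, 0.53 and 0.48 to 2.58, 4.16 and 4.63 (1.61 ± 0.19 SE, adjusted p = 0.000268). Under quantile normalization 1 of these genes rose and 1 fell in N2.

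The 5 receptors of moulting and the epidermis gave 0 rises and 2 falls in N2, and 3 rises and 1 fall in CN30. In N2, 40.7% of all genes rose and 32.0% fell, and in CN30 46.0% rose and 34.9% fell. The SF-1 and Ftz-F1 relative nhr-25 (X, 13008493 to 13013964) had 0.92, 0.47 and 1.01 FPKM in N2 at day 0 and 1.03, 0.96 and 4.49 later, so that day 12 alone was high. In CN30 it rose from 1.28, 1.15 and 1.03 to 6.83, 7.58 and 6.88 FPKM (1.91 ± 0.11 SE, adjusted p = 2.3e-05), with all later libraries above day 0. An assembled locus that covers 95.0% of its exon bases had 0.47, 0.61 and 1.48 FPKM in the later N2 libraries and 4.03, 3.49 and 2.87 in CN30. For nhr-25 in N2 the change was 0.65 ± 0.42 (SE, adjusted p = 0.201) and did not pass.

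The ROR-related nhr-23, which drives the moulting cycle, had 27.7, 25.7 and 23.5 and then 28.2, 29.4 and 35.1 FPKM in N2, and 23, 20.9 and 17.5 and then 24.7, 25.1 and 27.2 in CN30. Later CN30 libraries were above day 0, but the rise (0.32 ± 0.12 SE, adjusted p = 0.0406) was 0.04 under either other scaling and was lost without any one of 4 of the 6 libraries, day-0 replicates 2 and 3 and days 9 and 12. The E75-related nhr-85 fell in N2 from 8.45, 5.5 and 8.45 to 3.06, 3.5 and 5.72 FPKM (-0.75 ± 0.27 SE, adjusted p = 0.0403) and in CN30 had 7.75, 7.78 and 6.78 and then 6.47, 11.6 and 14.6 (0.43 ± 0.27 SE, adjusted p = 0.181). The TR2/TR4-type gene nhr-41 fell from 13.4 ± 5.43 to 5.75 ± 2.12 FPKM in N2 and from 14.4 ± 1.12 to 8.52 ± 0.766 in CN30. In N2 the calls of nhr-85 and nhr-41 were lost without a filter, under quantile normalization and without day-0 replicate 1 or 3, day 6 or day 9; in CN30 that of nhr-41 was lost in a joint fit of all 12 libraries. The GCNF-related nhr-91 did not pass in N2 (-0.43 ± 0.33 SE, adjusted p = 0.272) and rose in CN30 from 2.81, 3.34 and 2.95 to 4.76, 6.86 and 6.97 FPKM (0.82 ± 0.17 SE, adjusted p = 0.00341).

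Among the moulting effector genes 2 of 9 tested fell in N2, against 32.0% of all genes. In CN30, 6 of 10 fell and 1 rose, against 34.9 and 46.0% of all genes. The N2 count rests on day-0 libraries that differ widely, since the summed level of the 10 genes was 26.1 to 369 FPKM at day 0 in N2 and 294 to 338 in CN30. The moulting gene mlt-10 had 55.8, 1.05 and 53.3 FPKM in the 3 N2 day-0 libraries, so replicate 2 was low. Heterochronic genes, which order larval stages, had 2 rises and 3 falls of 6 in N2, where 40.7% of all genes rose and 32.0% fell. In CN30, where these shares were 46.0 and 34.9%, the 6 genes had 3 rises and 2 falls. Among them lin-29, which acts at the end of that pathway, fell in both (-2.13 ± 0.19 SE, adjusted p = 9.71e-05 and -1.79 ± 0.12 SE, adjusted p = 2.79e-05), and hbl-1 had 2.53, 2.57 and 2.29 and then 3.51, 2.41 and 5.47 FPKM in N2, and 2.35, 2.6 and 2.57 and then 10.7, 12.9 and 14.2 in CN30.

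Of the 6 neuronal and cell fate receptors only nhr-67 and nhr-6 reached the filter, and both rose in CN30, as did 46.0% of all genes. The tailless-related nhr-67 (IV, 11169748 to 11174791), which acts in the anchor cell and in neurons, had 0.25, 0.24 and 0.33 FPKM on day 0 and 1.88, 3.64 and 5.93 later in CN30 (1.83 ± 0.31 SE, adjusted p = 0.00147). Within CN30 it reached 1 FPKM only in those 3 later libraries, so it was tested only through the age at which it is high and not tested without any one of them. In N2 it had 0.39, 0.18 and 0.42 and then 0.56, 0.35 and 1.41 FPKM and was not tested. The NR4A-type gene nhr-6, needed to build the spermatheca, rose from 1.97, 1.39 and 1.59 to 3.33, 5.56 and 7.36 FPKM in CN30 (1.23 ± 0.25 SE, adjusted p = 0.00382) and did not pass in N2, at 2.06, 1.44 and 1.93 and then 1.42, 2.64 and 3.75 FPKM. For both genes the 3 later CN30 values stood in the order of the days.

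The largest rises were those of nhr-2 and sex-1. The embryonic gene nhr-2 (I, 5818474 to 5821134) had 0.41, 0.71 and 0.18 FPKM on day 0 and 13, 10.7 and 10.6 later in N2, and 0.88, 1.04 and 0.85 and then 16.6, 11.8 and 13.1 in CN30. Day 0 was low and the later libraries high in both strains without overlap (3.13 ± 0.20 SE, adjusted p = 2.74e-05 in N2 and 2.94 ± 0.15 SE, adjusted p = 1.76e-05 in CN30). In N2 only the 3 later libraries reached 1 FPKM, so without any one of them nhr-2 was not tested there. The gene sex-1 (X, 10201329 to 10205421), an X-linked signal that counts X chromosomes in sex determination, had 3.37, 2.57 and 4.17 FPKM and then 13.7, 12.1 and 20.1 in N2, and 3.5, 3.48 and 2.45 and then 24.3, 28 and 33.1 in CN30. Again no library overlapped between ages, and the later CN30 values all lay above the later N2 values (1.89 ± 0.24 SE, adjusted p = 0.000494 in N2 and 2.83 ± 0.17 SE, adjusted p = 2.31e-05 in CN30). All 8 oocyte markers rose in the same comparisons, and their part in the change of these genes was not tested.

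Receptors of unknown function also changed with age. In N2 nhr-20 had 5.99, 8.44 and 7.11 FPKM and then 26.7, 26 and 27.7, and in CN30 9.1, 9.46 and 9.09 and then 31.4, 34.8 and 35.9, a rise of nearly the same size in both strains (1.78 ± 0.15 SE, adjusted p = 7.04e-05 and 1.77 ± 0.09 SE, adjusted p = 1.72e-05). In the same way nhr-12 rose from 3.18 ± 0.426 to 10.7 ± 0.803 FPKM in N2 and from 3.74 ± 0.803 to 11.1 ± 0.672 in CN30. The rise of nhr-154 was 1.5 ± 0.25 (SE, adjusted p = 0.00173) in N2 and 2.55 ± 0.24 (SE, adjusted p = 0.000104) in CN30, with 7.09, 5.44 and 9.83 FPKM in the later N2 libraries and 11.9, 19.6 and 23.2 in CN30. Later N2 values of nhr-181, at 7.93, 8.1 and 5.55 FPKM, lay above those of CN30, at 5.17, 4.57 and 4.05, from day-0 levels between 1.08 and 1.72 in both strains. In CN30 nhr-11 rose from 3.99, 4.66 and 3.41 to 15.7, 21.8 and 19.6 FPKM (1.99 ± 0.16 SE, adjusted p = 6.16e-05), and in N2 it had 5.26, 2.16 and 5.49 and then 6.22, 8.1 and 15.9 (1.04 ± 0.42 SE, adjusted p = 0.0606).

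Further falls were those of nhr-156, from 5.21 ± 2.47 to 1.04 ± 0.546 FPKM in N2 and from 9.46 ± 2.07 to 2.67 ± 0.389 in CN30, and of nhr-121, from 3.65 ± 0.589 to 1.45 ± 0.255 and from 5.11 ± 0.311 to 1.77 ± 0.431. The N2 call of nhr-156 was lost under quantile normalization (adjusted p = 0.0539). The highly expressed nhr-97 fell from 61.5, 49.1 and 84 to 33.5, 31.3 and 34.6 FPKM in N2 and from 92.6, 101.49 and 98.8 to 52.4, 63.9 and 50.9 in CN30 (-0.91 ± 0.19 SE, adjusted p = 0.00471 and -0.80 ± 0.10 SE, adjusted p = 0.000426). The gene nhr-100 (IV, 9728676 to 9731071) had 3.45, 2.99 and 4.44 FPKM and then 0, 0 and 0.16 in N2, and 1.07, 3.45 and 3.49 and then 0, 1.23 and 3.18 in CN30. Its fall in N2 (-2.13 ± 0.16 SE, adjusted p = 5.14e-05) is uncertain: it reached 1 FPKM in N2 only at day 0, and an assembled locus over it and its neighbour nhr-138 rose from 5.36, 4.29 and 6 to 12.8, 9.92 and 11.5 FPKM in N2 (1.0 ± 0.18 SE, adjusted p = 0.0023), and reads given to one or the other cannot be told apart.

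Such assembled loci cover most of the exon bases of 49 receptors. In CN30, 20 of the 49 were called with age, the locus could be tested for 16, and all 16 moved the same way and were called. In N2, 17 were called, 12 loci were tested, 10 moved the same way, 9 of them called, and those over nhr-14 and nhr-100 had the opposite sign, the latter called. Loci were counted once per receptor, and some lie over more than 1, such as that over nhr-102 and nhr-84. The locus over nhr-100 also counted as moving with nhr-138. Locus and receptor share exons and libraries, so their agreement is not separate evidence.

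Of 7 co-regulators tested that receptors work with, 4 rose and 1 fell in N2, and 6 rose and 0 fell in CN30. Over all genes 40.7% rose and 32.0% fell in N2, and 46.0% rose and 34.9% fell in CN30. The acetyltransferase gene cbp-1 rose from 51.3 ± 1.61 to 93.9 ± 19.7 FPKM in N2 and from 49.2 ± 2.53 to 120.0 ± 15.1 in CN30. The mediator subunit gene mdt-15, which binds nhr-49, fell in N2 from 75.1 ± 3.99 to 52.7 ± 12 FPKM (-0.52 ± 0.17 SE, adjusted p = 0.0259) and did not pass in CN30 (-0.03 ± 0.11 SE, adjusted p = 0.833). Under median-ratio rescaling 3 rose and 2 fell in N2, and under quantile normalization 5 and 2.

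At day 0 the strains were set against each other on the youngest worms sampled. Of 137 receptors tested, 1 was higher and 1 lower in CN30 and 135 did not pass, so 1.46% were called against 3.68% of all genes. The lower gene was nhr-116 (V, 16912234 to 16915350), with 1.87, 1.32 and 1.62 FPKM in N2, whereas CN30 had 0.11, 0.09 and 0.1. All CN30 libraries lay far below all N2 libraries (-1.24 ± 0.13 SE, adjusted p = 0.00566). The difference was also there at days 6, 9 and 12, at 1.74, 1.29 and 1.7 FPKM in N2, whereas CN30 had 0.56, 0.06 and 0.17 (-1.04 ± 0.16 SE, adjusted p = 0.0327). At day 0 the call was lost without any one CN30 replicate (adjusted p from 0.0681 to 0.0719), and the gene was not tested without any one N2 replicate, since only the 3 N2 libraries reach 1 FPKM. At later days it was lost without a filter (adjusted p = 0.0693), without the day term (adjusted p = 0.0623) and without CN30 day 6, 9 or 12.

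The neighbours of nhr-116 within 20 kb also differed. The F-box gene fbxa-206 had 13.8 FPKM in N2 and 0.3 in CN30 at day 0 (means of 3, log2 -3.51, adjusted p = 0.000252), and Y102A5C.2 next to it 15 and 0.193 FPKM (-3.75, adjusted p = 0.000126). Further along, Y102A5C.4 was higher in CN30, at 2.21 against 0.313 FPKM (1.29, adjusted p = 0.00384). The receptor gene nhr-262, on the other side, was near 0 in both strains at day 0, with means of 0.02 and 0 FPKM.

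The higher gene was nhr-54 (V, 16503944 to 16505928), with 0.26, 0.45 and 0.41 FPKM in N2, whereas CN30 had 1.6, 1.37 and 1.91. Every CN30 library was above every N2 library at day 0 (0.93 ± 0.14 SE, adjusted p = 0.0198), and at days 6, 9 and 12 the values were 0.51, 0.45 and 0.65 in N2 and 1.01, 1.19 and 2.01 in CN30, again without overlap, but did not pass (0.62 ± 0.17 SE, adjusted p = 0.0716). Levels of both genes were low. At day 0 only the 3 CN30 libraries reached 1 FPKM for nhr-54, so it was tested only through the strain in which it is high and not tested without any one of them. The day-0 call of nhr-54 was lost without N2 replicate 1 or 3 and under quantile normalization (adjusted p = 0.0909). Without N2 replicate 2, nhr-54 passed (0.97, adjusted p = 0.011), nhr-20 was also higher in CN30 (0.44, adjusted p = 0.0487) and nhr-21 lower (-0.59, adjusted p = 0.0404), and nhr-116 did not pass the filter. With the replicate number as a block, 0 receptors were called (adjusted p = 0.0607 for nhr-116 and 0.121 for nhr-54). The hypoxia marker nhr-57 had 3.58, 3.14 and 4.87 FPKM in N2, whereas CN30 had 6.53, 7.43 and 6.15 at day 0, which did not overlap and did not pass (0.68 ± 0.17 SE, adjusted p = 0.0914).

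At days 6 to 12 the comparison of the strains pairs the libraries by day. Of 150 receptors tested, 21 were higher and 1 lower in CN30, and 128 did not pass. This is 14.7% called against 13% of all genes, and 14% called higher against a background of 9.77%, with 0.667% lower against 3.21%. Of the 150, 136 had a higher fitted value in CN30 (55.9% of all genes did), with a median of 0.39 on the log2 scale against 0.06 over all genes. Scaling moved this: it was 89 of 150 and a median of 0.10 after quantile normalization, and 121 of 150 and 0.27 after median-ratio rescaling, where 44.9 and 43.5% of all genes were higher and their medians were -0.04 and -0.08. By day, 86, 86.7 and 78.0% of the tested receptors were higher in CN30 at days 6, 9 and 12, against 59.0, 57.7 and 50.7% of all genes. These members were measured in the same 6 libraries, so they are not independent of each other.

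The calls are not stable. In limma 0 receptors were higher without N2 or CN30 of day 6 or of day 9 and without both day-6 libraries, an alternative chosen after seeing the data; 12 were without N2 day 12 and 8 without CN30 day 12. None was lower in these fits, and without an N2 library nhr-116 did not pass the filter. With 1 library per strain and day and a day term, leaving out 1 library also takes its day out of the strain difference. The difference of nhr-31, for example, was 0.7518 without N2 day 6, without CN30 day 6 and without both. Fits without either library of the same day are therefore not separate tests. Under quantile normalization 4 were higher and 1 lower (against 95.5% higher above), and under median-ratio rescaling 22 and 3 (88.0%). Without a filter 0 were called, without the day term 1, and with linear day 40.

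The regulator genes nhr-85 and nhr-91, both of the moulting group, were among those higher in CN30. At days 6, 9 and 12 nhr-85 had 3.06, 3.5 and 5.72 FPKM in N2, whereas CN30 had 6.47, 11.6 and 14.6 (1.19 ± 0.19 SE, adjusted p = 0.0326), and all CN30 values lay above all N2 values. The values of nhr-91 were 1.39, 1.37 and 4.04 in N2 and 4.76, 6.86 and 6.97 in CN30 (1.22 ± 0.25 SE, adjusted p = 0.0467), with N2 day 12 high among the N2 libraries and still below CN30. For nhr-25 the CN30 values, 6.83, 7.58 and 6.88 FPKM, were also all above the N2 values of 1.03, 0.96 and 4.49, but it did not pass (1.53 ± 0.36 SE, adjusted p = 0.0575); the assembled locus over it did (1.3 ± 0.27 SE, adjusted p = 0.0457).

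Both cell fate receptors tested were higher in CN30, as were 9.77% of all genes. The gene nhr-67 had 0.56, 0.35 and 1.41 FPKM in later N2 libraries and 1.88, 3.64 and 5.93 in CN30 (1.4 ± 0.23 SE, adjusted p = 0.0356). Its libraries did not overlap between the strains, and those of nhr-6 did, at 1.42, 2.64 and 3.75 against 3.33, 5.56 and 7.36 (0.83 ± 0.16 SE, adjusted p = 0.0411). The sex determination gene sex-1, with the values given above, was higher in CN30 by 0.87 ± 0.13 (SE, adjusted p = 0.0321).

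The stress receptors nhr-57 and nhr-45 were higher as well. The gene nhr-57, a target of the hypoxia factor HIF-1, had 2.71, 2.33 and 2.98 FPKM in N2, whereas CN30 had 8.2, 6.15 and 5.17 (1.01 ± 0.20 SE, adjusted p = 0.0446). No library overlapped. The level of nhr-45 was 3.64, 4.13 and 6.31 in N2 and 7.98, 11.8 and 17.8 in CN30 (1.21 ± 0.17 SE, adjusted p = 0.0298), and the assembled locus over 97.9% of its exon bases was higher too (1.13 ± 0.17 SE, adjusted p = 0.0321). Of the genes listed under fat and nutrient response, nhr-31 alone passed (0.72 ± 0.16 SE, adjusted p = 0.0499), just inside the threshold. The role given above for nhr-31 is in the excretory cell. Of 15 other settings nhr-31 passed with robust shrinkage and with linear day. The steroid receptor daf-12 missed it, at 2.42, 2.8 and 4.66 against 4.86, 5.41 and 7.54 FPKM (0.71 ± 0.16 SE, adjusted p = 0.0531).

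The strongly expressed nhr-97 had 33.5, 31.3 and 34.6 FPKM in N2, whereas CN30 had 52.4, 63.9 and 50.9 (0.73 ± 0.12 SE, adjusted p = 0.0349), without overlap. Another strong gene, nhr-3, had 7.35, 12.9 and 17 FPKM in N2, whereas CN30 had 15.8, 31.9 and 41.8 (1.17 ± 0.12 SE, adjusted p = 0.0241); CN30 was above N2 on each day, although CN30 day 6 lay below N2 day 12. The widest called difference was that of nhr-63, at 0.43, 0.43 and 2.37 FPKM against 2.07, 6.05 and 6.83 (1.54 ± 0.29 SE, adjusted p = 0.0416). The gene nhr-127, at 0.17, 0.18 and 0.84 against 1.48, 2.98 and 3.73 (1.4 ± 0.20 SE, adjusted p = 0.0301), reached 1 FPKM at these days only in CN30, so it was tested only through the strain in which it is high and not tested without any one CN30 library. Likewise nhr-129 had 0.32, 0.58 and 1.24 FPKM in N2, whereas CN30 had 2.26, 4.23 and 3.84 (1.38 ± 0.19 SE, adjusted p = 0.0301), while the assembled locus over it and nhr-168 did not pass (0.41 ± 0.15 SE, adjusted p = 0.123). Of 6 called receptors with such a locus, all 6 loci were higher in CN30 and 1 passed. Locus and receptor share exons and libraries here too.

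**Figure D5:**
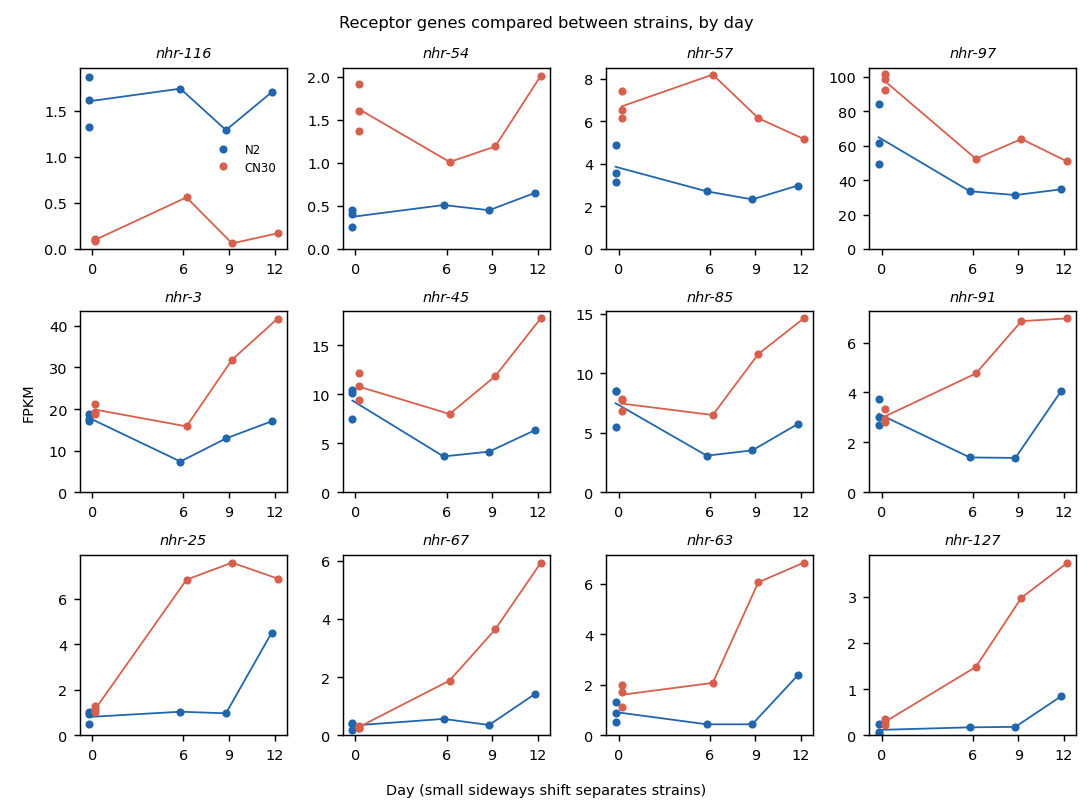
FPKM by day in N2 (blue) and CN30 (red) for 12 receptor genes; points are libraries, lines join the mean of the 3 day-0 libraries to the single libraries of days 6, 9 and 12, and each panel starts at 0. The gene nhr-116 is lower in CN30 on every day, and in the middle and bottom panels CN30 lies above N2 at days 6, 9 and 12, with N2 day 12 the highest of the later N2 values.

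In all 21 receptors called higher in CN30, N2 day 12 was above both N2 day 6 and N2 day 9, as it was in 68% of the 150 receptors and 50.6% of all genes tested. All 3 later CN30 libraries lay above all 3 later N2 libraries in 16 of the 21, in 65 of the 150 receptors (43.3%) and in 21.7% of all genes. The 21 were called from these same libraries, so their separation follows in part from the call. Among them nhr-127 and nhr-263 passed the filter only through CN30. The later CN30 libraries also listed fewer receptors at 0, as given above. Of 9 neuron markers 5 were higher in later CN30, at a summed 188 to 276 FPKM against 153.7 to 196 in N2. Of 8 oocyte markers 5 were lower, at 2144 to 2929 against 2632 to 3522. The shares of all genes were 9.77% higher and 3.21% lower. Under quantile normalization 0 of either list passed. With median-ratio rescaling 4 neuron markers were higher and all 8 oocyte markers lower. Their part in the receptor differences was not tested.

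Of the related lists, 2 of 7 co-regulators were higher in later CN30, cbp-1 and din-1, the latter a corepressor that binds daf-12, with 24.9, 26.7 and 43 FPKM in N2, whereas CN30 had 51.4, 50.9 and 61.7 (0.81 ± 0.12 SE, adjusted p = 0.0321). In the supply of dafachronic acid 1 of 5 passed, dhs-16 (1.33 ± 0.28 SE, adjusted p = 0.0463). The 9 moulting effectors and the 9 fat genes gave 0 calls in limma. Of 6 heterochronic genes 2 were higher, lin-14 (1.18 ± 0.23 SE, adjusted p = 0.0431) and hbl-1 (1.55 ± 0.21 SE, adjusted p = 0.0301). The counts of these lists stand against 9.77% of all genes higher in later CN30 and 3.21% lower.

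Whether the change with age differed between the strains was tested with the product of strain and age class. Of 157 receptors tested, 1 passed, nhr-263, and it had a higher product in CN30, so 0.637% were called against 2.0% of all genes. Its N2 values were 0, 0 and 0.55 FPKM on day 0 and 0.15, 0 and 0.16 later, and its CN30 values 0, 0 and 0 and then 1.01, 1.4 and 1.51. It was thus listed at 0 in all day-0 CN30 libraries, and the fitted product (1.27 ± 0.24 SE, adjusted p = 0.0298) depends on the pseudocount. Only the 3 later CN30 libraries reached 1 FPKM, so the gene was tested only through the group in which it is high and not tested without any one of them. At an unadjusted p under 0.05 there were 35 receptors, 31 with a higher product and 4 with a lower one, or 22.3% against 24.7% of all genes, of which 14.6% were higher and 10.1% lower. The median product of the receptors was 0.29 on the log2 scale, against 0.03 over all genes. With quantile normalization these medians were 0.08 and -0.02, and with median-ratio rescaling 0.18 and -0.08.

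This count turned on single libraries. Without N2 day 12, 20 receptors had a higher product and 1, nhr-181, a lower one, among 1434 and 591 of all genes; the higher ones include nhr-25, nhr-67, nhr-91, nhr-85, daf-12, nhr-62, nhr-48 and sex-1. Without N2 day-0 replicate 2 it was 5, without CN30 day 6 it was 6, and without 8 of the other 9 libraries it was 0. With day as a factor 16 passed, among 1180 and 703 of all genes, nhr-67, nhr-91, nhr-85, nhr-45, daf-12, nhr-6 and sex-1 among them. The products themselves were 0.97 ± 0.30 (SE, adjusted p = 0.0993) for daf-12, 1.26 ± 0.47 (SE, adjusted p = 0.142) for nhr-25, 1.18 ± 0.40 (SE, adjusted p = 0.118) for nhr-85 and 0.95 ± 0.30 (SE, adjusted p = 0.105) for sex-1 in the analysis of all libraries. Of the genes tied to receptors, alh-8 and hbl-1 passed, the latter at 1.53 ± 0.29 (SE, adjusted p = 0.0318).

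Between the later days, with both strains in 1 fit, 0 of 157 receptors passed in limma for day 9 against day 6, for day 12 against day 9 or for day 12 against day 6. All genes gave 0.0254, 0.331 and 3.8% called, of which 0.0254, 0.0382 and 1.31% were higher and 0, 0.293 and 2.49% lower on the later day. At an unadjusted p under 0.05 there were 5, 4 and 35 receptors, and of the 35 for day 12 against day 6, 30 were higher at day 12. These are 3.18, 2.55 and 22.3% of the receptors, against 4.07, 9.59 and 19.5% of all genes, and for day 12 against day 6, 19.1% of the receptors and 10.5% of all genes were higher at that p. The median difference of receptors was 0.24 on the log2 scale for day 12 against day 6, against 0.01 over all genes; it was 0.21 against 0.02 with quantile normalization and 0.18 against -0.06 with median-ratio rescaling. With 1 library per strain and day, this is a comparison of 2 libraries with 2. All 12 libraries entered the fit, with strain as an additive term. Its spread thus comes in part from the day-0 libraries and from strain differences in the change with age. The absence of calls is therefore not measured against the spread of the later days alone.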

How the data were processed

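Per the labels, total RNA of whole C. elegans was made into libraries with Illumina protocols, and the submitters' processing notes name HISAT, StringTie and the genome build WBcel235, with no version. The authors deposited FPKM of mRNA genes and of lncRNA genes for 12 libraries, normalized to gene length and mapped fragments. The mRNA table also holds assembled loci, which were tested with the annotated genes and count among all genes. Values of single assembled loci are given only where a locus lies over a receptor gene on the same strand. Positions, strands and exons of the loci came from the authors' deposited statistics of assembled transcripts. Assembled lncRNA loci were used for an estimate of depth. Gene identifiers were turned into symbols with a RefSeq gene table, which named 18888 of 19024 numeric identifiers, and positions come from that table. No read counts were used. Depth was estimated from low FPKM values of 203 to 361 short single-exon lncRNA loci per library. Times locus length less 110 to 140 bases, 90.0 to 96.7% of these values fell on steps. The tolerance was 0.06 of a step, chosen after seeing the data. The bases taken off and the step were those that gave the highest share in each library. On these steps 1 fragment was worth 0.0211 to 0.0253 FPKM times kb, so the implied depth was alike in all libraries to within that range.

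Values were taken as log2(FPKM + 1) and tested with limma 3.58.1 in R 4.3.3, with an intensity trend and Benjamini-Hochberg adjustment over all genes with at least 1 FPKM in at least 3 libraries of the comparison. There were 8 comparisons: age within each strain, strain at day 0, strain at days 6 to 12 with day as a factor, the product of strain and age, and 3 pairs of later days. Genes named were those of 7 lists by role, the 6 largest called changes in each direction and the 3 highest means. For age and strain, the 6 were taken among genes with a mean of at least 1 FPKM in the higher group. Their groups also had to be free of overlap, or for strain at later days to differ the same way on all 3 days. Absence of overlap in genes named this way for age or for strain at day 0 thus follows from the choice. The text adds others, among them nhr-3, nhr-21, nhr-18 and nhr-56, that were chosen after their values were seen. The receptor genes, the lists and the tests were chosen with earlier results of these data known. Day-0 replicates with the same number did not deviate together (r = 0.06, -0.04 and -0.02), so numbers were not taken as pairs. Alternatives were another pseudocount, filter and scaling, other terms for day, a replicate block and leaving out each library. Tested on simulated data, the fits found 45 to 61% of genes changed by 1 on the log2 scale. They found 78 to 88% of those changed by 2. Changes were placed only in genes with a simulated mean above 3 on the log2(FPKM + 1) scale. The median receptor, with a mean of 1.25 FPKM, lies below that level, so these rates do not describe most receptors. Few genes were changed in each simulation, whereas 72.7 and 80.9% of all genes were called with age in N2 and CN30. The rates therefore do not describe the age comparisons either. Of the calls in simulated data, 0.76 to 8.44% were false, with genes whose simulated level met 0 left out. Python 3.11.15 with pandas 2.3.3, NumPy 2.4.6 and Matplotlib 3.10.9 was used for summaries and figures.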

Additional observations from a re-analysis of the deposited data

Results flagged for a closer look

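The receptor gene nhr-263 was the only one of 157 for which the change with age differed between the strains by the test of the product of strain and age (1.27 ± 0.24 SE, adjusted p = 0.0298). Its values at days 6, 9 and 12 were 0.15, 0 and 0.16 FPKM in N2, whereas CN30 had 1.01, 1.4 and 1.51, and it was listed at 0 in 2 of 3 N2 and 3 of 3 CN30 libraries of day 0. It reached 1 FPKM only in the 3 later CN30 libraries, so it was tested only through the group in which it is high, and it was not tested without any one of them. The call did not pass with a pseudocount of 0.1 (3.80, adjusted p = 0.0794), under quantile normalization (1.11, adjusted p = 0.0677), or without N2 day-0 replicate 1, N2 day 6, N2 day 9 or any one CN30 day-0 library, at adjusted p from 0.0613 to 0.0921.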

How the results depend on the processing

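With age in N2, 74 receptors rose and 7 fell under quantile normalization, and 45 fell under median-ratio rescaling; leaving out 1 library gave 19 to 25 rises and 13 to 35 falls, with 13 falls without day-0 replicate 1 or 3. With age in CN30, 12 fell under quantile normalization and, with median-ratio rescaling, 36 fell, and leaving out 1 library gave 44 to 68 rises and 19 to 22 falls. Between the strains at day 0, 2 receptors were higher in CN30 without a filter, and leaving out 1 library gave 0 to 2 higher and 0 to 1 lower. Same-numbered day-0 replicates shared only a number, and with the replicate block 0 were higher and 0 lower. At later days 0 were higher and 0 lower without a filter, 4 were higher under quantile normalization, 1 higher and 0 lower without the day term, 40 higher with linear day, 3 lower under median-ratio rescaling, and 0 higher and 0 lower without both day-6 libraries. Leaving out 1 library gave 0 to 12 higher and 0 lower. For the product of strain and age, 0 were higher with a pseudocount of 0.1 or under quantile normalization, 2 without a filter, with a filter of 0.3 FPKM or under median-ratio rescaling, and 16 with day as a factor, and leaving out 1 library gave 0 to 20 higher and 0 to 1 lower. For day 12 against day 6, 1 was higher after quantile normalization and 1 was lower under median-ratio rescaling, and leaving out 1 library gave 0 to 4 higher and 0 to 1 lower. The cause was not tested.

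Of the named genes called, 13 of 22 for age in N2 and 20 of 24 for age in CN30 passed in every fit run, against 0 of 2, 0 of 12 and 0 of 1 for strain at day 0, strain at later days and the product. Fewer fits were run for nhr-100 and nhr-2 in N2 and nhr-67 in CN30, since without any one of the 3 libraries in which they reach 1 FPKM they were not tested. None changed direction. Single libraries per later age, a table without counts, the loss of low genes to the filter and values listed at 0 limit what these comparisons can show.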

Other observations

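Of the runs of neighbouring receptor genes on chromosome V, 2 are described by their calls. In the run of 12 at V, 451451 to 497297, 11 were tested with age: nhr-55 and nhr-202 fell in N2, and in CN30 nhr-99, nhr-55, nhr-203 and nhr-202 fell and nhr-201 rose. Over all genes 32.0% fell in N2, and in CN30 34.9% fell and 46.0% rose. In the run of 9 at V, 2210510 to 2235180, nhr-128, nhr-18 and nhr-56 rose with age in CN30 and were higher in later CN30 than in later N2, of 8 tested, and in N2 nhr-56 rose and nhr-184 fell, of 8 tested. Over all genes 46.0% rose in CN30 and 9.77% were higher in later CN30. The values of nhr-18 were 2.66, 2.07 and 3.45 FPKM on day 0 and 3.11, 3.31 and 8.37 later in N2, and 3.21, 3.44 and 2.89 and then 7.86, 12.3 and 14.1 in CN30. Those of nhr-56 were 2.54, 1.5 and 2.42 and then 2.95, 3.57 and 4.9 FPKM in N2, and 2.78, 3.19 and 3.03 and then 5.68, 7.82 and 10.3 in CN30. These runs were chosen after their values were seen.

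The row of nhr-8, a receptor gene of sterol and foreign compound response, was not analysed here, but an assembled locus covers 97.8% of its exon bases. That locus had 12.7, 8.64 and 17.4 FPKM on day 0 and 10.9, 11 and 12 at days 6, 9 and 12 in N2, and 16.4, 21.6 and 17.8 and then 12.5, 12.1 and 10.5 FPKM in CN30. In CN30 all later values lay below the day-0 values, and in N2 the ages overlapped.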
